A study of Homo sapiens with 12 samples.

Results

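The small nucleolar RNA (snoRNA) host genes of human neurons were examined after knockdown of ZCCHC17, which encodes an RNA-binding protein with a zinc knuckle. Members were the rows of the deposited count table whose symbol is SNHG followed by a number, together with GAS5, ZFAS1, EPB41L4A-AS1 and TAF1D. The rule found 32 genes among 59653 symbols, 28 of them named SNHG. Of these, 28 had a mean of at least 50 counts over the 12 libraries, and 4 fell under it: SNHG31 (mean 41.3), SNHG25 (7.0), SNHG27 (4.25) and SNHG28 (2.0). The filter on low counts kept 29 members and removed SNHG25, SNHG27 and SNHG28.

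Most vertebrate snoRNAs are cut out of introns, so the host RNA is transcribed, spliced and then debranched to release them. Box C/D snoRNAs guide ribose methylation of ribosomal RNA and box H/ACA snoRNAs guide its pseudouridylation, while the related scaRNAs act on spliceosomal RNA in Cajal bodies. Many noncoding hosts start with a pyrimidine tract, as mRNAs of the translation machinery do, and their spliced RNA is a known substrate of nonsense-mediated decay. In neurons SNHG14 is known for its long transcript from the imprinted Prader-Willi and Angelman region, which holds the SNORD116 and SNORD115 clusters and runs antisense to UBE3A.

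All 12 libraries were total RNA of human neurons made from IMR-90 induced pluripotent stem cells; IMR-90 is a fibroblast line. A negative control siRNA was given to 6 (siNC) and an siRNA against ZCCHC17 to the other 6 (siZCC). The cells came from 1 line, the titles also carry the letters NPC without saying what they stand for, and siRNA dose and time are not given in the sources used here. Nothing says whether libraries of a group came from separate cultures, so p-values measure only the spread between these samples.

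Library totals ran from 76115083 to 120023356 counts and were on average higher in siNC (111754863 ± 10826516, SD, n = 6) than in siZCC (89267357 ± 10189473). ZCCHC17 itself was at 56.9 ± 2.49 counts-per-million (CPM, scaled by TMM factors) in siNC and 9.999 ± 0.507 in siZCC, and the groups did not overlap. The 8 neuron markers were all detected, with a summed level of 2425 to 2818 CPM in siNC and 2212 to 2550 in siZCC, and the 5 neural progenitor markers summed to 5170 to 5507 and 5286 to 5776 CPM. All 4 markers of dividing cells were lower in siZCC, with sums of 469 to 543 CPM against 357 to 425. Of the neuron markers 2 were called lower (DCX and STMN2), of the progenitor markers 2 higher, of 5 astrocyte markers 2 higher and 1 lower (sums of 1120 to 1290 and 1196 to 1461 CPM), and of 4 fibroblast or mesenchymal markers 2 lower (sums of 91.6 to 321 and 49.0 to 165 CPM). Libraries also split by IL1B, a cytokine gene, into 6 with 2 to 12 counts (3 of each group) and 6 with 449 to 1512 counts. No label explains that split, so values are given on each side of it where they bear on a call.

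The starts of the host RNAs are shown first, because a pyrimidine tract there is the feature best known to be shared by these genes. A tract was counted where a transcript began with C and went on with at least 4 C or T, on the transcript's own strand. In GENCODE release 29 (GRCh38), 16 of 32 members (50%) had at least 1 transcript with such a start, against 6.58% of all 58676 genes in the transcript file. A gene with more annotated transcripts has more chances of a match; per transcript the shares were 13.4% of 314 and 2.41%. The first 24 bases of the transcript with the longest tract are given below for 6 members that passed the test and for SNHG16 and SNHG5, which did not, with the tract in capitals. These are chosen transcripts: a tract was held by 6 of 29 GAS5 transcripts, 6 of 30 of SNHG29, 1 of 25 of SNHG1, 1 of 3 of SNHG3 and the 1 transcript of SNHG19. The SNHG1 start shown lies inside the gene, between SNORD25 and SNORD26, while the gene's outermost start is at position 62855914. SNHG30 held no tract in either of its 2 transcripts.
GAS5, chr1:173867966-173867989 (-): CTTTTCgaggtaggagtcgactcc
SNHG29, chr17:16438975-16438998 (+): CTCCTTTTgtgaggattgggatat
SNHG1, chr11:62855456-62855479 (-): CTCCTgtctgcaggatttacgcgc
SNHG3, chr1:28506043-28506066 (+): CCTTTTTggagacagattcgcagt
SNHG19, chr16:2155335-2155358 (-): CTTTTCggggtcgagtccgagggg
SNHG30, chr17:35568120-35568143 (+): ggcggagaagcaaaggagagggaa
SNHG16, chr17:76557769-76557792 (+): CTTTTCgaggtcggccgcgtggct
SNHG5, chr6:85678710-85678733 (-): CTTTTacgtcggccttcgcgagcg
For SNHG32 none of 11 GENCODE transcripts began with a tract, but one stood at the start that RefSeq (GRCh38.p14) gives. The 30 bases around that start, 15 before it and 15 from it on, hold one in capitals.
SNHG32, chr6:31834901-31834930 (+): ctcgccattttagttCTTTTTgcgaagtgg
By RefSeq, which lists 28 of the members, the tract stood exactly at the start in 8 (28.6%), against 4.07% of 35116 promoters. Among the called hosts these were SNHG19 and SNHG32; GAS5, SNHG29, SNHG1, SNHG3 and SNHG30 had no tract within 5 bases of their RefSeq start. These letters describe the annotated starts; start sites used in these cells were not analysed here.

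Some of the snoRNAs that the called hosts carry are shown next, since they are what makes these genes hosts. All of those shown hold the marked letters. For box C/D snoRNAs the capitals mark TGATGA within the first 20 bases (the C box) and CTGA within the last 20 (the D box); for the box H/ACA snoRNA they mark ACA 3 bases from the 3′ end. All are from GENCODE 29 on GRCh38 and are written 5′ to 3′ on the strand of the host.
SNORD25 in SNHG1, chr11:62855564-62855632 (-): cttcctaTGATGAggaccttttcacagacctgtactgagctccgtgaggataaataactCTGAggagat
SNORD27 in SNHG1, chr11:62855012-62855083 (-): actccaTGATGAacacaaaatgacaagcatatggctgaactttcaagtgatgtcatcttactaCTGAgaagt
SNORD49A in SNHG29, chr17:16440036-16440106 (+): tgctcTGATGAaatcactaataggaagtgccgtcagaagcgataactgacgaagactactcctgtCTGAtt
SNORD49B in SNHG29, chr17:16439505-16439576 (+): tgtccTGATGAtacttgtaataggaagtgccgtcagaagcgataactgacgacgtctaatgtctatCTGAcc
SNORD48 in SNHG32, chr6:31835263-31835326 (+): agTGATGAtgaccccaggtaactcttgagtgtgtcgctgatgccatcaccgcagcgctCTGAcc
SNORD60 in SNHG19, chr16:2155023-2155105 (-): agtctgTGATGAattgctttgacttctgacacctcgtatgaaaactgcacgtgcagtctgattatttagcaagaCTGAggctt
SNORD7 in SNHG30, chr17:35573657-35573753 (+): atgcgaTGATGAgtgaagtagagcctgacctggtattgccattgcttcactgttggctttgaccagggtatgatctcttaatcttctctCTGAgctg
SNORA73B in SNHG3, chr1:28508559-28508762 (+): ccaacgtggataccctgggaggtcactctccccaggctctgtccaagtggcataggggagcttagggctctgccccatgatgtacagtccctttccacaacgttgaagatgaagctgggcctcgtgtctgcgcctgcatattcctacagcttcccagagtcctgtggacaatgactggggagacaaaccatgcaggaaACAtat
Both boxes in these exact letters were present in 92 of 111 SNORD genes inside members (82.9%) and in 196 of 314 SNORD genes in all (62.4%). Among those not shown, SNORD22, SNORD26 and SNORD28 of SNHG1 lacked TGATGA in their first 20 bases. ACA stood 3 bases from the 3′ end in 16 of 28 SNORA genes inside members (57.1%) and in 145 of 216 in all (67.1%). GENCODE 29 places 148 snoRNA or scaRNA genes within the members, of which 84 lie in SNHG14. It places none in GAS5, where RefSeq lists 11, and none in SNHG27, where RefSeq lists 0 as well.

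Compared per length, the hosts spanned a wide range of levels in siNC. SNHG29 led with 67.6 ± 4.199 CPM per kb of annotated exon (SD, n = 6), followed by SNHG32 with 57.9 ± 2.84 and SNHG6 with 37.9 ± 2.15. SNHG19, whose exons add up to only 342 bases, came 4th at 24.7 ± 1.47, and GAS5 was close to it at 22.0 ± 1.35. SNHG5 (16.7 ± 0.884), SNHG14 (13.7 ± 1.06), ZFAS1 (11.5 ± 0.426), SNHG1 (11.4 ± 0.462) and EPB41L4A-AS1 (10.5 ± 0.355) made up the rest of the leading 10. Within that order ZFAS1 and SNHG1 did not differ beyond their spread. At the other end stood SNHG31 with 0.198 ± 0.0394 CPM per kb, SNHG27 with 0.0317 ± 0.0264 and SNHG28 with 0.0102 ± 0.00596. Exon length here is the union over all annotated transcripts, which understates the level of a gene with many rarely used exons, SNHG14 (43324 bases) above all.

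**Figure D1:**
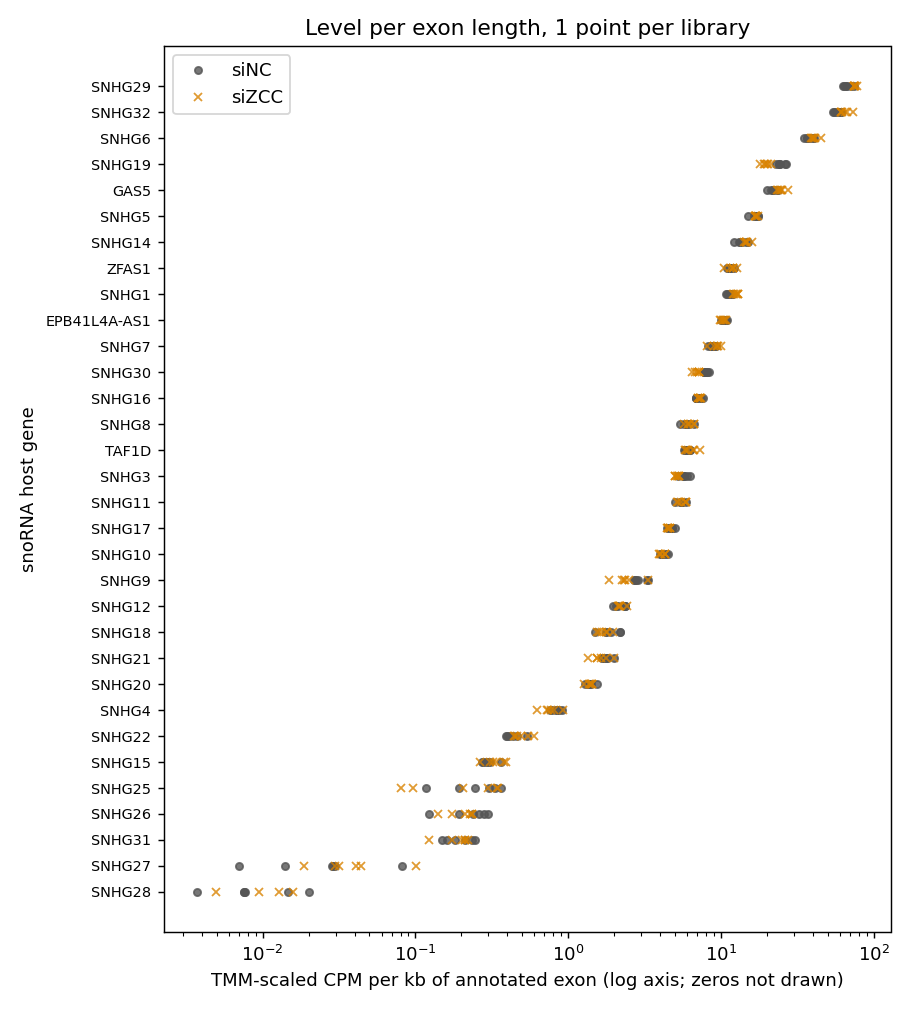
Level of each of the 32 host genes in TMM-scaled CPM per kb of annotated exon (x, log axis), 1 point per library, siNC as grey circles and siZCC as orange crosses; libraries with 0 counts are not drawn. SNHG29 and SNHG32 stand at the top and SNHG27 and SNHG28 at the bottom, and for most genes both groups lie on top of each other.

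Together the members took 0.150% ± 0.00347 of all counts in siNC and 0.158% ± 0.00407 in siZCC (SD, n = 6 each), with ranges of 0.143 to 0.154% and 0.152 to 0.163%. SNHG14 alone made up 40.1% ± 2.50 of the members' counts in siNC and 40.4% ± 1.16 in siZCC, a weight to keep in mind for any sum over these genes.

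Between siNC and siZCC, 7 of the 29 tested hosts differed by small amounts. GAS5, SNHG1, SNHG29 and SNHG32 were higher in siZCC by 1.10 to 1.13 times, and SNHG3, SNHG19 and SNHG30 were lower, at 0.798 to 0.896 of their siNC level. The test was the quasi-likelihood test of edgeR, adjusted by the Benjamini-Hochberg method over 24671 genes, with a threshold of 0.05. It called 24.1% of the members and 22.2% of all genes tested, so the share of hosts called was close to that of any gene. Higher calls were 11.4% and lower calls 10.8% of all genes. The median log2 fold change of the 29 hosts was 0.02, with 16 above 0 and 13 below, beside a median of -0.0016 over all genes. In bulk RNA, fewer cells of a type and less RNA per cell cannot be told apart, and the part of the cell-type markers that moved, those of dividing cells, neurons, progenitors, astrocytes and fibroblasts, was not tested.

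**Figure D2:**
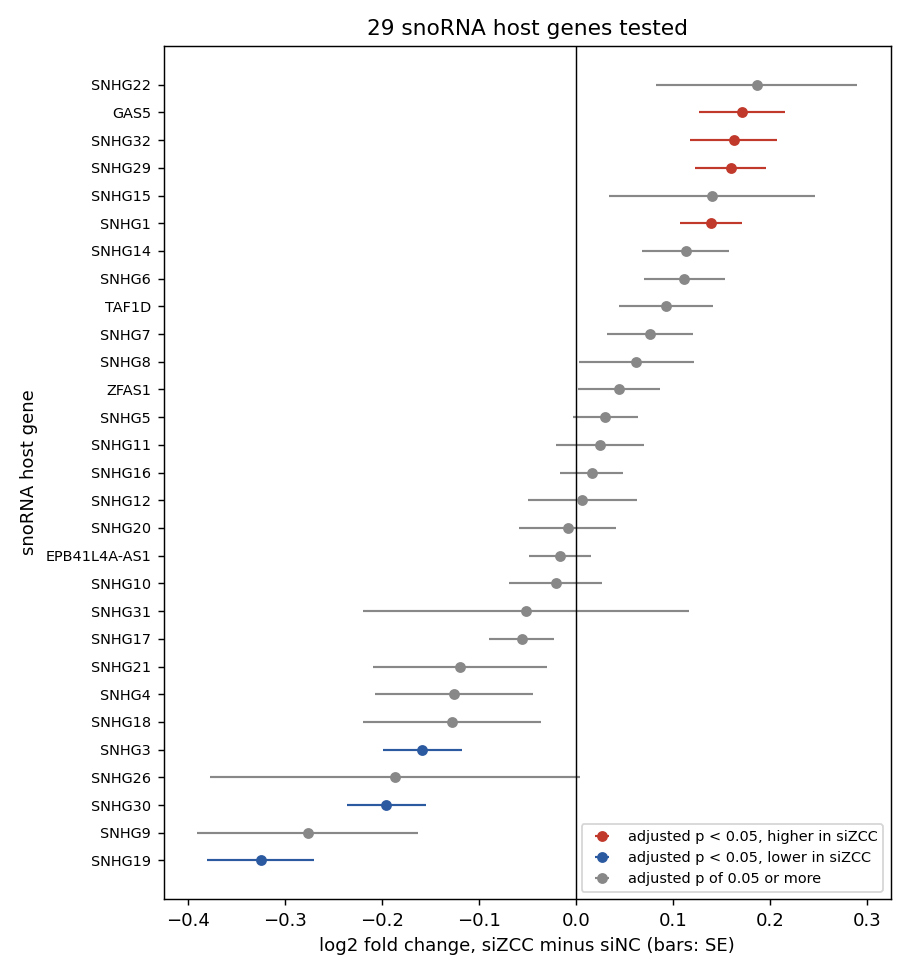
Log2 fold change of siZCC minus siNC (x) with its standard error (bars) for the 29 hosts tested, sorted by size; red and blue mark hosts called higher or lower by edgeR's quasi-likelihood test (adjusted p under 0.05) and grey those not called. The 4 red points lie between 0.14 and 0.17 and the 3 blue ones between -0.32 and -0.16.

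SNHG29 (chr17:16438822-16478678, + strand), host of SNORD49A, SNORD49B and SNORD65, is annotated as noncoding and lies next to LRRC75A on the opposite strand. Its siNC libraries ran from 238 to 278 CPM (median 250) and its siZCC libraries from 279 to 295 (median 282). Every siZCC library was thus above every siNC library, although the highest siNC value nearly touched the lowest of siZCC. The log2 fold change was 0.16 (SE 0.0362, adjusted p = 0.00453 by edgeR's quasi-likelihood test). It was 0.11 in the 6 libraries with high IL1B (adjusted p = 0.209) and 0.20 in the 6 with low IL1B (adjusted p = 0.0165).

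SNHG1 (chr11:62851988-62855914, - strand), known as the U22 host gene, carries a row of box C/D snoRNAs that includes SNORD25 and SNORD27. It ranged from 40.5 to 44.8 CPM in siNC (median 42.7) and from 45.4 to 48.4 in siZCC (median 47.5). The groups did not overlap. SNHG1 rose by 0.14 on the log2 scale (SE 0.0318, adjusted p = 0.00461 by edgeR's quasi-likelihood test), with 0.11 (adjusted p = 0.169) at high IL1B and 0.16 (adjusted p = 0.0446) at low IL1B.

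GAS5 (chr1:173863900-173868882, - strand) was named for its accumulation in growth-arrested cells and is a classical host whose spliced RNA is turned over by nonsense-mediated decay. Its level ran from 72.7 to 86.3 CPM in siNC (median 79.7) and from 84.2 to 99.96 in siZCC (median 89.7). Of the siZCC libraries 4 of 6 exceeded every siNC library, so the groups overlapped. GAS5 rose by 0.17 (SE 0.0444, adjusted p = 0.0107 by edgeR's quasi-likelihood test). On the high IL1B side the change was 0.09 (adjusted p = 0.387) and on the low side 0.25 (adjusted p = 0.0140); whether the sides differ was not tested.

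SNHG32 (chr6:31834608-31839766, + strand), host of SNORD48 and SNORD52, is labelled protein-coding in GENCODE 29 under its older name C6orf48. It stood at 97.8 to 109.5 CPM in siNC (median 105) and at 110.2 to 132 in siZCC (median 114), without overlap. It rose by 0.16 (SE 0.0443, adjusted p = 0.0144 by edgeR's quasi-likelihood test). Neither side of the IL1B split reached the threshold alone, at 0.09 (adjusted p = 0.278) for high and 0.24 (adjusted p = 0.0570) for low IL1B.

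Among the hosts that fell, SNHG19 (chr16:2154797-2155358, - strand), host of SNORD60, changed most. Its libraries lay between 7.82 and 9.10 CPM in siNC (median 8.27) and between 6.13 and 7.32 in siZCC (median 6.76), and every siZCC library was below every siNC library. The log2 fold change was -0.32 (SE 0.0548, adjusted p = 0.000486 by edgeR's quasi-likelihood test). SNHG19 was the member called on both sides of the IL1B split, with -0.33 (adjusted p = 0.0232) and -0.32 (adjusted p = 0.0314).

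SNHG30 (chr17:35568109-35574843, + strand), named LINC02001 in GENCODE 29, carries SNORD7 and, unlike the other lower hosts, has no annotated start tract. It ranged from 11.6 to 12.5 CPM in siNC (median 11.99) and from 9.67 to 10.8 in siZCC (median 10.6), again without overlap. The change was -0.20 (SE 0.0409, adjusted p = 0.00253 by edgeR's quasi-likelihood test), and -0.19 and -0.21 on the high and low IL1B sides (adjusted p = 0.0842 and 0.0828).

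SNHG3 (chr1:28505980-28510892, + strand) holds SNORA73A and SNORA73B, the U17 snoRNAs, which take part in the cleavage of ribosomal precursor RNA rather than in its modification. It lay between 21.3 and 25.7 CPM in siNC (median 23.5) and between 20.5 and 21.8 in siZCC (median 21.2). Only 3 of 6 siZCC libraries were below every siNC library. SNHG3 fell by 0.16 (SE 0.0406, adjusted p = 0.00991 by edgeR's quasi-likelihood test), with -0.20 (adjusted p = 0.0528) at high and -0.12 (adjusted p = 0.260) at low IL1B. In all, 5 of 29 hosts had groups that did not overlap, against 9.74% of all genes tested.

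**Figure D3:**
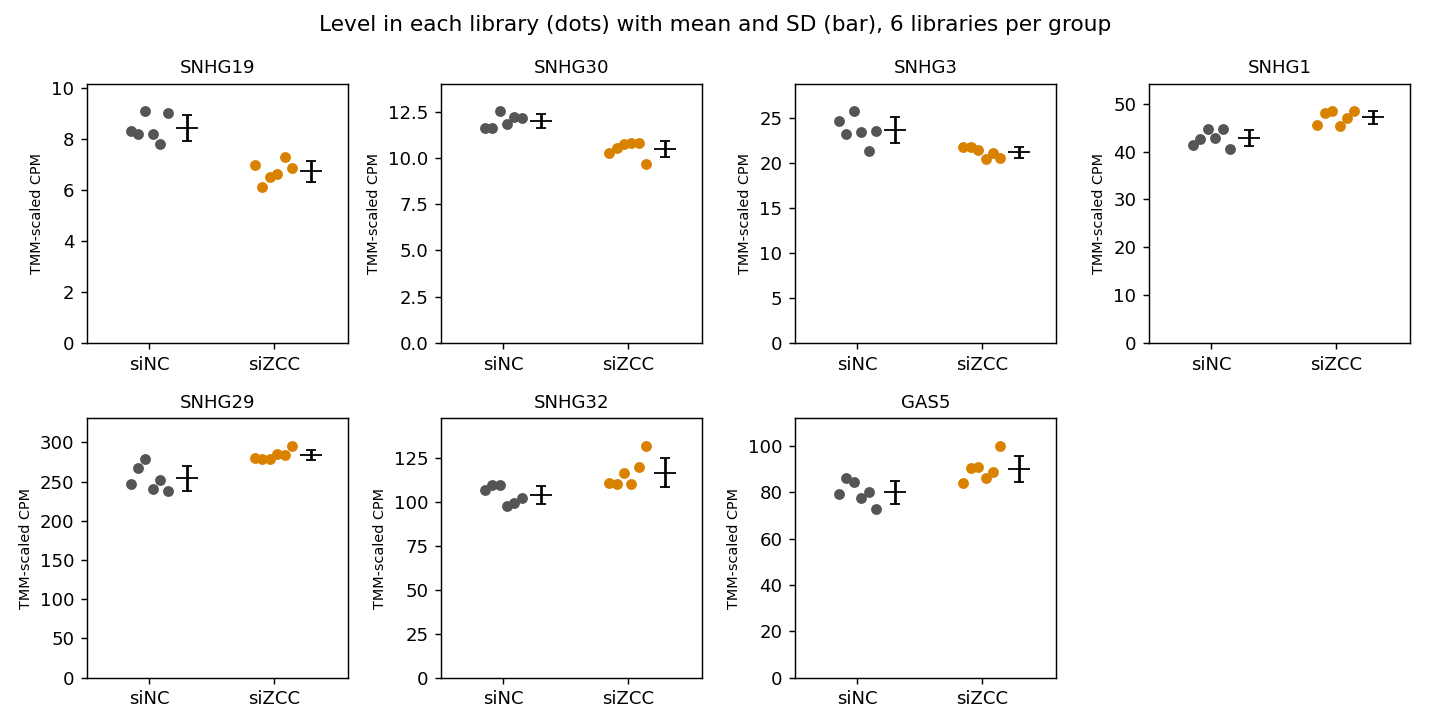
TMM-scaled CPM (y, from 0) of the 7 called hosts in each of the 6 siNC (grey) and 6 siZCC (orange) libraries, with the mean and SD beside the points. SNHG19, SNHG30, SNHG29, SNHG1 and SNHG32 show no overlap of the groups, while SNHG3 and GAS5 do.

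**Figure D4:**
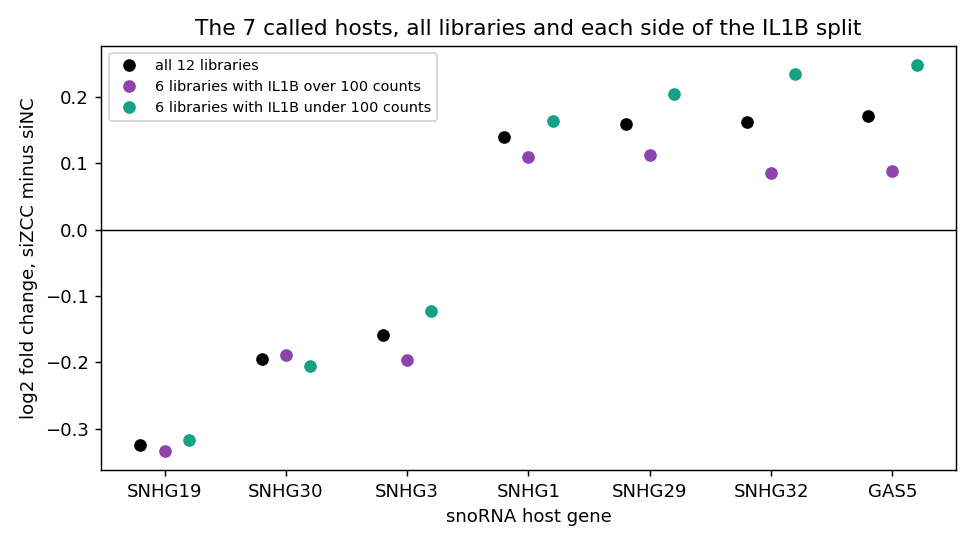
Log2 fold change (y) of the 7 called hosts over all 12 libraries (black), over the 6 with IL1B above 100 counts (purple) and over the 6 below it (green). The direction is the same on both sides for all 7; the 4 hosts that rose have the larger values at low IL1B.

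The other 22 tested hosts were not called. SNHG14 came near the threshold, at 595 ± 46.0 CPM in siNC and 644 ± 26.1 in siZCC (log2 fold change 0.11, SE 0.0444, adjusted p = 0.0792), and its siNC libraries spread from 530.3 to 655 CPM. SNHG6, host of SNORD87, showed 47.2 ± 2.69 and 51.0 ± 2.76 CPM (0.11, SE 0.0416, adjusted p = 0.0642); it passed at low IL1B alone (0.20, adjusted p = 0.0432) and stood at 0.02 at high IL1B. SNHG9 had the largest fitted value among the hosts not called that were lower, -0.28 (SE 0.114, adjusted p = 0.0934), from 1.63 ± 0.155 to 1.34 ± 0.266 CPM. These adjusted p-values come from the same quasi-likelihood test of edgeR.

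For well-known members the data showed little movement, with small errors. SNHG5, host of SNORD50B, was at 46.7 ± 2.48 CPM in siNC and 47.7 ± 0.688 in siZCC (log2 fold change 0.03, SE 0.0337). ZFAS1, host of the SNORD12 family, was at 25.7 ± 0.955 and 26.5 ± 1.71 CPM (0.04, SE 0.0419). EPB41L4A-AS1, host of SNORA13, was at 35.1 ± 1.19 and 34.7 ± 1.19 CPM (-0.02, SE 0.0319). SNHG16 was at 38.4 ± 1.77 and 38.8 ± 0.715 CPM (0.02, SE 0.0321), SNHG17 at 19.8 ± 0.789 and 19.0 ± 0.352 (-0.06, SE 0.0336) and SNHG7 at 38.3 ± 1.69 and 40.3 ± 2.80 (0.08, SE 0.0441). TAF1D encodes a protein, a subunit of the RNA polymerase I factor SL1. It stood at 50.5 ± 1.84 and 53.8 ± 4.79 CPM (0.09, SE 0.0483), with 0.19 at low IL1B and -0.02 at high.

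The remaining hosts were expressed weakly. SNHG11, SNHG12, SNHG10, SNHG20 and SNHG8 had siNC means of 15.5, 9.40, 8.19, 8.48 and 5.55 CPM and log2 fold changes of 0.02, 0.01, -0.02, -0.01 and 0.06. SNHG4 and SNHG18 had 3.74 and 3.67 CPM, with -0.13 each. Below 2 CPM the errors widened: SNHG21 (-0.12, SE 0.0895), SNHG22 (0.19, SE 0.104), SNHG15 (0.14, SE 0.106), SNHG26 (-0.19, SE 0.191) and SNHG31 (-0.05, SE 0.168). With errors of that size a change of 0.16, as in SNHG3, was not detectable.

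How the hosts fell by level was looked at after their values had been seen, and is given without a test. Of the 11 tested hosts with at least 30 CPM in siNC, 10 had a fold change above 0, 4 were called higher and 0 lower (median 0.11). Of the 18 below 30 CPM, 6 were above 0, 0 were called higher and 3 lower (median -0.05). Among all 7451 genes tested at 30 CPM or more, 53.0% were above 0, 18.4% were called higher and 14% lower (median 0.0068), and among the 17220 below it 48.2%, 8.41% and 9.41% (median -0.0097). Level and precision go together in counts, and all hosts share the same 12 libraries. By start tract in a GENCODE transcript, 3 were higher and 2 lower of 15 with a tract (median 0.03), and 1 higher and 1 lower of 14 without (median -0.02). The grouping depends on the annotation: with a tract exactly at the RefSeq start also counted, which adds SNHG32, it was 4 higher and 2 lower of 16 (median 0.04), and 0 higher and 1 lower of 13 (median -0.02). By cargo in GENCODE 29, 12 hosts with only box C/D snoRNAs had 3 higher and 2 lower (median 0.04). The 10 with only box H/ACA snoRNAs had 0 higher and 1 lower (median -0.03), and 4 scaRNA hosts had none called (median -0.01). Outside these classes were TAF1D and SNHG12, which carry both box types, and GAS5. GAS5, called higher, has 0 snoRNAs in GENCODE 29 and 11 in RefSeq, so this grouping depends on the annotation too.

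The snoRNAs themselves were hardly counted. Of 148 annotated within the members, 143 had a row in the table, and 82 of these were at 0 in all 12 libraries. Rows whose gene overlaps an annotated exon of the host were at 0 in 46 of 51 cases, and rows clear of host exons in 36 of 92; how reads shared by overlapping genes were assigned is not given in the sources used here. Only 6 rows passed the filter and 0 were called by edgeR's quasi-likelihood test, with 0 at an unadjusted p under 0.05 and 0 by DESeq2. SNORA71B in SNHG17 was at 1.07 ± 0.0882 CPM in siNC and 0.992 ± 0.147 in siZCC (log2 fold change -0.11, SE 0.104), and SNORD104 in SNHG25 at 0.693 ± 0.0477 and 0.803 ± 0.122 (0.22, SE 0.111). SNORD6 in TAF1D (-0.07, SE 0.200) and SNORA73B in SNHG3 (0.22, SE 0.265) had wide errors. Mature snoRNA levels therefore cannot be read from these libraries. SNORD104 differed from the rest in that it was counted more than its host: it had 63 to 86 counts in siNC and 45 to 88 in siZCC, whereas SNHG25 had 3 to 12 and 2 to 9.
SNORD104 in SNHG25, chr17:64146083-64146152 (+): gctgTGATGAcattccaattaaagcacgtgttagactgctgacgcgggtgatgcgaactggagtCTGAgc

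Several called hosts share a promoter region or exons with another gene, and those neighbours were read beside them. SNHG1 starts 188 bases from SLC3A2, which encodes the heavy chain of an amino acid transporter and runs the other way; SLC3A2 rose from 137 ± 5.02 to 161 ± 6.08 CPM (log2 fold change 0.23, SE 0.0320, adjusted p = 7.8e-05 by edgeR's quasi-likelihood test). GAS5, by its outermost GENCODE start, lies 800 bases from ZBTB37, a zinc finger gene, which rose by 0.36 (SE 0.0630, adjusted p = 0.000674). The GAS5 start shown above with its tract lies further inside the gene, so the 800 bases do not give its distance from ZBTB37. SNHG29 overlaps 452 exon bases of LRRC75A on the opposite strand, and LRRC75A rose by 0.20 (SE 0.0483, adjusted p = 0.00702). In these 3 pairs host and neighbour went the same way.

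Other neighbours went the other way or were not called. GAS5-AS1, antisense to GAS5 over 42 bases, fell by 0.23 (SE 0.0782, adjusted p = 0.0421 by edgeR's quasi-likelihood test), from 2.26 ± 0.150 to 1.93 ± 0.196 CPM. TRAF7, whose start lies 340 bases from that of SNHG19, rose by 0.10 (SE 0.0333, adjusted p = 0.0466) while SNHG19 fell. RCC1, which shares 242 exon bases with SNHG3 on the same strand, stood at -0.03 (SE 0.0349). Whether the counting used strand is not given in the sources used here, so reads from overlapping exons on opposite strands may have been mixed; only the bases stated overlap.

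Other snoRNA hosts were taken from the annotation alone, as genes whose span holds a snoRNA or scaRNA gene on the same strand. They are not fully separate from the other lists. RCC1, MATR3 and SEC14L1 share exons with a member on the same strand. EEF2, EEF1B2, RACK1 and TPT1 are also among the genes known for a pyrimidine start, given below. Of 271 protein-coding genes that hold a snoRNA or scaRNA and are not members, 251 were tested and 85 called (33.9%, against 22.2% of all genes). Higher were 51 and lower 34, and the median log2 fold change of those tested was 0.01. The coding hosts were not matched for level. Among all genes tested at 30 CPM or more in siNC, 18.4% were called higher and 14% lower. The higher coding hosts of smallest p were KCNC4, a potassium channel gene (0.52), HSPA9, a mitochondrial chaperone (0.18), RPL3, a ribosomal protein (0.25), and CCNB1IP1 (0.23). The lower ones were NLGN4X, a neuronal adhesion gene (-0.19), IL13RA1 (-0.56), NOL11 (-0.15) and NOP58 (-0.19). Of 64 noncoding hosts outside the set, 28 were tested and 2 called (7.14%, against 22.2% of all genes). They were not matched for level. Under 30 CPM in siNC, 8.41% of all genes tested were called higher and 9.41% lower. The 2 called were both lower: PCAT4 (-0.55) and LINC00888 (-0.11). That count was 1 under several alternatives, among them leaving out any 1 of siNC replicates 1, 2, 3 and 6 or siZCC replicates 1, 3 and 4.

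Proteins that assemble snoRNAs into particles moved little and in both directions. Of 20 tested, 1 rose and 3 fell (20% called, near the 22.2% of all genes; median -0.01). FBL, the methyltransferase of box C/D particles, rose from 59.0 ± 2.56 to 64.7 ± 4.61 CPM (log2 fold change 0.13, adjusted p = 0.0397 by edgeR's quasi-likelihood test). By the same test its core partner NOP58 fell from 45.4 ± 0.322 to 39.9 ± 2.47 CPM (-0.19, adjusted p = 0.00131). NOP56, another core partner, fell by 0.09 (adjusted p = 0.0426), while the core protein SNU13 was not called. WRAP53, the Cajal body chaperone, fell by 0.13 (adjusted p = 0.0318). NOP58 and NOP56 are themselves snoRNA hosts. The count was 1 without siNC replicate 4 and 2 without any 1 of siNC replicates 1 and 3 or siZCC replicates 1, 4 and 6.

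Of 22 factors of nonsense-mediated decay, 2 rose and 5 fell (31.8% called, against 22.2% of all genes; median -0.01). DHX34 (0.15, adjusted p = 0.0104 by edgeR's quasi-likelihood test) and CASC3 (0.11, adjusted p = 0.0127) were higher. PNRC2 (-0.13, adjusted p = 0.00277), UPF2 (-0.10, adjusted p = 0.0240) and UPF3B (-0.12, adjusted p = 0.0272) were among the lower. Without siZCC replicate 1 or 4 the count was 3, and without siZCC replicate 3 it was 4. The decay factors were not matched for level either. At 30 CPM or more in siNC, 18.4% of all genes tested were called higher and 14% lower.

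Genes known for a pyrimidine start, many of them of the translation machinery, were taken with LARP1, the protein that binds it. The list also holds VIM, HNRNPA1, NPM1, NAP1L1 and TPT1, and VIM is a progenitor marker above as well. Its genes were called higher more often than all genes. Of 18 tested, 9 rose and 0 fell (50%, against 11.4% of all genes called higher), with a median log2 fold change of 0.08 and 16 values above 0. Among all genes tested at 30 CPM or more in siNC, 18.4% were called higher, and the list was not matched for level. EEF2 went from 2323 ± 123 to 2730 ± 147 CPM (0.23, adjusted p = 0.000514 by edgeR's quasi-likelihood test), EEF1A1 rose by 0.14 (adjusted p = 0.00210), RACK1 by 0.16 (adjusted p = 0.00359) and EIF4B by 0.09 (adjusted p = 0.0187). The count of 9 was 5 without siNC replicate 4 or siNC replicate 6, 4 with a replicate block, and 1 and 2 on the high and low sides of the IL1B split. EEF1G was not tested, since its row held nearly no counts (0.00278 CPM in siNC).

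**Figure D5:**
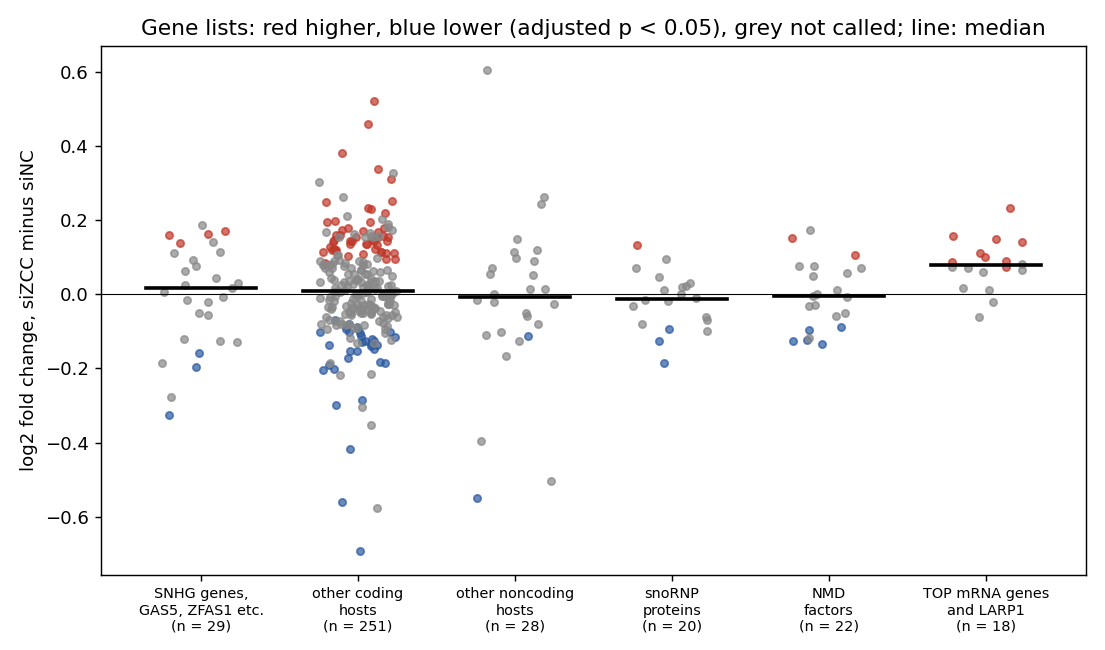
Log2 fold change of siZCC minus siNC (y) for each tested gene of 6 lists, with the list median as a bar; red and blue mark genes called higher or lower (adjusted p under 0.05) and grey those not called. The medians of the host genes, other hosts, particle proteins and decay factors lie within 0.02 of 0, and that of the genes with a pyrimidine start and LARP1 lies at 0.08.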

How the data were processed

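Total RNA of 6 siNC and 6 siZCC libraries of neurons was lysed in Qiazol and made into libraries with the NEBNext Ultra II Directional kit, per the labels' protocols. The submitters' processing notes name bcl2fastq 2.17, STAR 2.7.6a, featureCounts 2.0.1 and the build GRCh38; the annotation release and the strand setting are not given in the sources used here. The authors deposited whole-number counts per gene symbol, 1 column per library, with no row of totals or unassigned reads.

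The deposited counts were tested in R 4.3.3 with edgeR 4.0.16 (filterByExpr, TMM scaling, glmQLFit and glmQLFTest, no covariate), over 24671 of 59653 genes, with Benjamini-Hochberg adjustment over all of them and a threshold of 0.05. The standard error is the log2 fold change divided by the square root of F. The biological coefficient of variation was 6.55%; with 76115083 to 120023356 counts per library it outweighs counting noise for well-counted hosts, while for hosts of few counts, such as SNHG31 and SNHG26, counting noise adds to it. Every pair of libraries within a group differed by more than counting noise (chi-square divided by its degrees of freedom at least 5.15).

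Positions, exon lengths, hosted snoRNAs, transcript starts and snoRNA sequences came from GENCODE 29 (all 32 members and 94.1% of symbols matched), and the SNHG32 window and promoter shares from RefSeq. Neighbours were genes with exons overlapping a member or starting within 1000 bases on the other strand. Distances between starts were taken from the outermost GENCODE start of each gene. All members with a mean of at least 50 counts are described; from each list at most 4 called genes per direction are named, by smallest p. Some genes that these rules cover are not reported here. The members, lists and alternatives were chosen with earlier results of these data known. Alternatives were DESeq2 size factors, upper quartile scaling, no filter, a mean of at least 50 counts, the DESeq2 1.42.0 Wald test, limma 3.58.1 voom, the replicate number as a block and leaving out each library once; the following were added once the data had been seen: the IL1B split (at 100 counts), a GC content and length correction and thinning to the smallest library. Splicing and reads were not analysed here.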

Additional observations from a re-analysis of the deposited data

Results flagged for a closer look

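In SNHG12, replicate 3 of siZCC stood highest in its group at 3.38 log2 CPM, while the other 5 siZCC libraries lay between 3.19 and 3.23; the gap to the next library took 0.784 of the group's range. In SNHG20 the same library was the lowest, at 2.95 against 3.07 to 3.12, with a gap of 0.699 of the range. Both gaps exceed the 95% limit of Dixon's test for 6 samples. These were 2 of 58 groups examined (29 hosts in 2 groups), or 3.45%, and chance gives about 5%. Neither gene was called.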

How the results depend on the processing

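The 7 called hosts were the same genes under both other scalings, both other filters, the DESeq2 Wald test (which added SNHG6), limma voom, the replicate block, the IL1B covariate, thinning, and each of 12 fits that left out 1 library, which called 7 to 8 hosts (4 to 5 higher, 3 to 4 lower; median log2 fold change 0.0049 to 0.031). No result tested changed direction past the threshold. The titles' replicate numbers did not pair the libraries (correlations of same-numbered libraries -0.08 to 0.02); with the replicate block the count of hosts was still 7 and that of all genes 4902, but the counts were 1 for other noncoding hosts, 2 for particle proteins, 4 for decay factors and 4 for pyrimidine-start genes. Without a filter the other noncoding hosts gave 1 call and the pyrimidine-start genes 5; a mean of at least 50 counts or thinning gave 1 for the noncoding hosts, and the Wald test of DESeq2 gave 7 for the particle proteins. Leaving out 1 library gave 1 to 3 calls for other noncoding hosts, 1 to 4 for particle proteins, 3 to 9 for decay factors and 5 to 11 for pyrimidine-start genes.

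Fits on 6 libraries had fewer samples and called fewer genes (2055 at high and 1597 at low IL1B, against 5481). At high IL1B 1 host was called, SNHG19 (0 higher, 1 lower; median -0.0174), with 18 other coding hosts, 0 noncoding hosts, 1 particle protein, 2 decay factors and 1 pyrimidine-start gene. At low IL1B 5 hosts were called (4 higher, 1 lower; median 0.0535), SNHG19, SNHG29, SNHG1, GAS5 and SNHG6, with 19 other coding hosts, 0 noncoding hosts, 0 particle proteins, 0 decay factors and 2 pyrimidine-start genes. The GC content and length correction called 11 hosts, 7 of them higher, adding SNHG14, SNHG6, SNHG9 and TAF1D. It also called more of all genes tested, 6413 (26.0%) against 5481 (22.2%) in the main fit. The cause was not tested.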

Other observations

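Neighbours of hosts that were not called also moved. SEMA5A, an axon guidance gene that starts 125 bases from SNHG18 on the other strand, rose from 54.8 ± 10.8 to 76.6 ± 5.52 CPM (log2 fold change 0.48, adjusted p = 0.00174 by edgeR's quasi-likelihood test, n = 6 each), while SNHG18 had a value of -0.13. RPS2, a ribosomal protein gene whose start lies 99 bases from that of SNHG9, rose by 0.19 (adjusted p = 0.00464), while SNHG9 had -0.28. MATR3, which shares 626 exon bases with SNHG4 on the same strand, fell by 0.13 (adjusted p = 0.00351). DIPK1B, antisense to SNHG7 over 1094 exon bases, rose by 0.14 (adjusted p = 0.0125). UBE3A, which SNHG14 overlaps antisense over 198 exon bases, stood at -0.06 (SE 0.0309) and was not called.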
